A study of Homo sapiens with 22 samples.

Results

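Introns shorter than 1000 bases (1 kb) were examined in RNA recovered with PSF, the RNA-binding protein encoded by SFPQ, and in input RNA of 3 prostate cancer cell lines. An intron was taken from the rows that the deposited count files class as intron, counted once per position and strand, and kept when its reads summed over the 12 libraries reached 100. Members were thus selected on a measured value, their summed reads, and 2802 met the rule, of 53800 short introns with at least 1 read and of 171740 introns of any length with at least 1 read. One of them has no exon row for its transcript, so 2801 were tested, beside 26643 introns of 1 kb or more with 100 reads or more. Near the read threshold, 36 short introns had 99 reads and 27 had 100, and near the length limit 4 introns 1 base short of 1000 bp and 2 of 1000 bp reached 100 reads. PSF-RIP libraries were deeper, so the rule leans towards introns that are high in PSF-RIP.

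The groups were PSF-RIP and input libraries of 22Rv1, the line labelled LTAD, and LNCaP, each after 10 nM of the androgen dihydrotestosterone (DHT) for 24 h or after vehicle (ethanol). LNCaP is an androgen-responsive line, 22Rv1 comes from a relapsed xenograft, and the labels do not spell out LTAD. LNCaP and 22Rv1 were grown in 10% serum and LTAD in charcoal/dextran-treated 10% serum without phenol red. All cells spent 3 days in 2.5% charcoal/dextran-treated serum before the hormone. Each line, treatment and assay has 1 library, 12 in all, and no label says that they came from separate cultures. The p-values therefore measure the spread between these libraries, which may be technical. No immunoglobulin control was analysed here, and 4 samples of a second LNCaP set could not be mapped and were not analysed here.

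Introns are removed by the spliceosome, which recognises short sequences at both intron ends, usually GT at the start and AG at the end. Short introns are common in highly expressed genes with GC-rich sequence, are a frequent class among retained introns, and can host small nucleolar RNAs (snoRNAs). PSF is a nuclear protein of the DBHS family that takes part in splicing and in paraspeckles, and in prostate cancer it has been linked to androgen receptor expression. A minor spliceosome removes a rare class called U12-type introns, whose start carries a conserved sequence.

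Mapped reads numbered 4641602 to 10439461 in the PSF-RIP libraries and 1073228 to 3014049 in the inputs, so a short intron near the threshold has few reads in an input library. SFPQ exon reads were 215 to 327 CPM (reads scaled to 1e6 mapped reads per library) in PSF-RIP and 83.6 to 131 in input. Summed luminal prostate markers (9 of 9 detected) reached 1979 to 4014 CPM in PSF-RIP and 1747 to 5226 in input. Summed basal markers were at most 0.862 in PSF-RIP and 1.15 in input with KRT5 at 0, and leukocyte markers at most 0.359 in PSF-RIP and 0.664 in input with CD3E at 0. Stromal markers were 19.4 to 37.2 in PSF-RIP and 6.31 to 22.4 in input, with COL1A2 at 0 in every library. COL1A1 was read in every library, at 3.64 to 37.2 in PSF-RIP and 1.25 to 14.5 in input. LUM had 42 to 144 reads in each 22Rv1 library and 0 or 1 in those of LNCaP and LTAD. DCN had 6 to 23 reads in each 22Rv1 library and 0 in those of LNCaP and LTAD. Neuroendocrine markers were 53.7 to 159 in PSF-RIP and 27.9 to 92.2 in input.

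Whole introns are printed for 10 of the named introns of at most 150 bp, because several of them were read in some libraries and nearly absent in others. Each is given on the GRCh37 build, 5′ to 3′ on the transcript's strand, with the dinucleotides at both splice sites in capitals.
RUVBL2, chr19:49513129-49513229, plus strand: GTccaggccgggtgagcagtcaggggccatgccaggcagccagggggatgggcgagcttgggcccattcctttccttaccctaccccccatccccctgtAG
UBE2J2, chr1:1192511-1192587, minus strand: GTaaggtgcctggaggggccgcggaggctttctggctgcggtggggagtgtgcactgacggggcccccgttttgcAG
EIF4G2, chr11:10820972-10821098, minus strand: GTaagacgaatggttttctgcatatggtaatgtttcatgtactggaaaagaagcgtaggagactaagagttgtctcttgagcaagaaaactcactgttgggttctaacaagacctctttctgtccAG
CAPNS1, chr19:36636777-36636877, plus strand: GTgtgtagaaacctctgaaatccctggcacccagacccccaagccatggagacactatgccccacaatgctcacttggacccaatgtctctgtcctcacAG
UBTF, chr17:42293178-42293273, minus strand: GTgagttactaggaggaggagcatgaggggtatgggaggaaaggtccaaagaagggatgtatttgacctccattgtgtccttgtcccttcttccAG
LARP1, chr5:154179320-154179432, plus strand: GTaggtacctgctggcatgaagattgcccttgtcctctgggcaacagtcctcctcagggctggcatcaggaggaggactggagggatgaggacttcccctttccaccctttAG
WBSCR22, chr7:73112025-73112161, plus strand: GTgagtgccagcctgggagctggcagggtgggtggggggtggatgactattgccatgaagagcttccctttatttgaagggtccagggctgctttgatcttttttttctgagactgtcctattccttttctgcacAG
USP7, chr16:8992295-8992387, minus strand: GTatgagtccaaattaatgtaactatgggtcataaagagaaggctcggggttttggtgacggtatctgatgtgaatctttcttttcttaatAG
EEF2, chr19:3977346-3977425, minus strand: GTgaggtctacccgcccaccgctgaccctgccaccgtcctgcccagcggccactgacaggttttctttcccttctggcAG
ALDOA, chr16:30080711-30080819, plus strand: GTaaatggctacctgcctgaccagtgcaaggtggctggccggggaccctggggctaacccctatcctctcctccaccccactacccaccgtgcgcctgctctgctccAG

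The U12-type set is shown by its first 20 bases, since the motif that defines it lies there. Capitals mark TATCCTT at bases 2 to 8 of the intron, searched on the transcript's strand alone at that position.
PSMA1, chr11:14535929-14535948, minus strand: gTATCCTTtttatgttagca
TMEM258, chr11:61557945-61557964, minus strand: gTATCCTTtcactgagcagc
PHB2, chr12:7076819-7076838, minus strand: aTATCCTTctgctggagaga
RPL4, chr15:66795376-66795395, minus strand: gTATCCTTtgtttcactacc
DERL2, chr17:5384596-5384615, minus strand: gTATCCTTcaacaaacaaca
EIF3I, chr1:32689723-32689742, plus strand: gTATCCTTattttgggtctg
UBXN4, chr2:136511138-136511157, plus strand: gTATCCTTtcagtaaagaat
XRCC5, chr2:216981566-216981585, plus strand: gTATCCTTtttctgccagag
ALG3, chr3:183961322-183961341, minus strand: aTATCCTTtaaattgtggga
GNL3, chr3:52724721-52724740, plus strand: gTATCCTTtattagtggtaa
GAR1, chr4:110739247-110739266, plus strand: gTATCCTTtttcattggaag

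The 2801 tested short introns lay in 1758 genes and were spread over 2422 transcripts. Their median length was 570 bp (shortest 54), against 8099 bp for the longer introns. Their median GC content was 53.3%, against 42.5% in the longer introns. Ends of GT-AG were found in 96.2% of the short and 98.3% of the longer introns, and GC-AG ends in 84 of the short introns (2.999%) and 1.21% of the longer ones. TATCCTT at bases 2 to 8 was found in 11 short introns (0.393%) and in 131 longer ones (0.492%). GAS5, a noncoding RNA that hosts snoRNAs, had the most separate members with 8, followed by FASN, the fatty acid synthase, with 7, and BRD2 and SENP3-EIF4A1 with 6 each. A total of 767 overlapped another member, so the set holds 2335 separate stretches, and such introns share reads.

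Reads in many of these introns can also come from an exon of another transcript. An exon of another RefSeq or GENCODE transcript or a small RNA on the same strand overlapped 2005 short introns (71.6%) by 1 bp or more, against 74.3% of the longer ones. A further 372 (13.3%) overlapped only a transcript that GENCODE classes as a retained intron, against 6.70% of the longer ones. The other 424 (15.1%) overlapped no exon, against 18.97% of the longer ones. The covered part differed more, since other exons covered at least as many bases as they left free in 1188 short introns (42.4%), against 5.07% of the longer ones. A snoRNA or small Cajal body RNA lay inside 73 short introns (2.61%), against 0.807% of the longer ones. The intron was the last of its transcript in 24.5% of the short and 18.1% of the longer introns with a known position.

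Summed over all members, short introns had more reads per exon read in PSF-RIP than in input in every line and treatment. Per 1000 exon reads of the same transcripts, they held 70.3 (DHT) and 84.6 (vehicle) intron reads in LNCaP PSF-RIP, against 55.4 and 60.6 in the LNCaP inputs. In 22Rv1 the values were 55.5 (DHT) and 56.8 (vehicle) in PSF-RIP, against 50.5 and 50.9 in input. In LTAD they were 54.6 (DHT) and 58.2 (vehicle) in PSF-RIP, against 50.4 and 52.8 in input. The 2 LNCaP PSF-RIP libraries stood above the other 10 libraries. Short introns free of any other exon were lower in PSF-RIP in 22Rv1 vehicle (20.35 against 22.8). They were also lower in LTAD DHT (20.18 against 23.89) and LTAD vehicle (20.01 against 23.64), and higher in the other pairs. Introns of 1 to 5 kb also held more in PSF-RIP in every pair, from 95.5 against 92.42 in 22Rv1 DHT to 168.9 against 113.9 in LNCaP vehicle. Per kb, the reads over short introns were 22.7% to 35.2% of those over exons in PSF-RIP and 20.9% to 25.2% in input.

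Length divided the short introns. Introns of at most 150 bp held 23.1 to 27.7 reads per 1000 exon reads in PSF-RIP and 29.7 to 32.4 in input, lower in PSF-RIP in all 6 pairs. Introns over 500 bp, within the limit of 1000, held 56.4 to 97.2 in PSF-RIP and 48.6 to 63.1 in input, higher in PSF-RIP in all 6 pairs. These are sums of all reads, in which introns with many reads weigh most. Counted intron by intron, the median log2 change at 150 bp or less was above 0 in 3 of the 6 pairs and below 0 in the other 3 (-0.22 to 0.07).

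**Figure D1:**
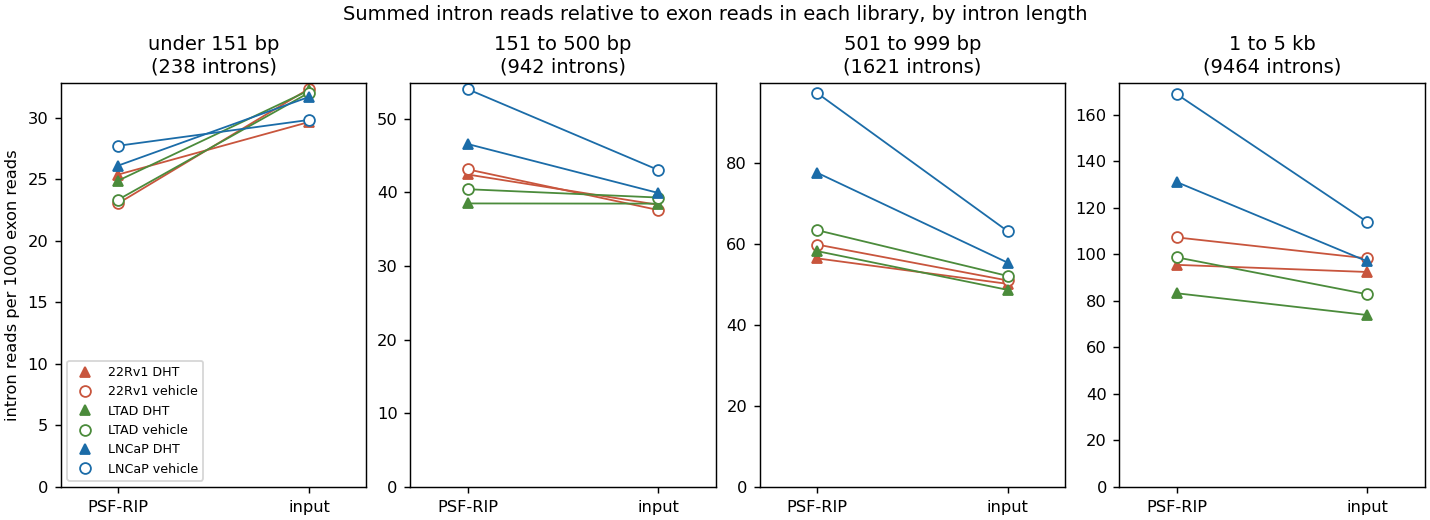
Intron reads per 1000 exon reads of the same transcripts by intron length, in PSF-RIP and in input, with a line joining the 2 libraries of each line and treatment. At 150 bp or less every PSF-RIP value (23.1 to 27.7) lies below every input value (29.7 to 32.4), while over 500 bp each PSF-RIP library lies above its own input.

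The comparison of PSF-RIP with input asks which introns have more reads, relative to the exons of their transcript, in PSF-RIP than in input. For each intron the change in its reads was set against the change in the exon reads of the same transcript (edgeR's quasi-likelihood test, adjusted over 29444 introns), so a positive log2 value means a higher intron-to-exon ratio in PSF-RIP. Of the 2801 short introns, 549 were higher and 75 lower in PSF-RIP, 22.3% of the members, against 25% of all introns tested (18.3% higher and 6.71% lower). The median log2 change was 0.25 over the short introns, 0.18 over the longer ones and 0.19 over all. Without LNCaP the order turned, at 0.20 over the short introns and 0.22 over all. When introns were chosen with both assays weighted equally, 504 were higher and 142 lower, and higher introns made up 78.0% of the calls in place of 88.0%. In bulk libraries such as these, fewer cells of a type and less RNA per cell cannot be told apart.

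The share of introns called was larger in the longer bins of short introns. Of 238 introns of at most 150 bp, 11 were higher and 8 lower (median log2 -0.04). Over 150 and up to 500 bp, 162 of 942 were higher and 27 lower (median 0.18), and over 500 bp 376 of 1621 were higher and 40 lower (median 0.35). Introns of 1 to 5 kb gave 2187 higher and 490 lower of 9464 (median 0.28). Annotation also divided them. Introns overlapped only by a retained-intron transcript had a median of 0.46 (93 of 372 higher, 15 lower), those overlapped by another exon 0.26 (416 of 2005 higher, 38 lower), and those free of any exon 0.01 (40 of 424 higher, 22 lower). Host transcripts had a median of 3662 exon reads, and 14 had under 100, of which 3 were called.

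Ribosomal protein introns led the higher set. RPS12, a protein of the small ribosomal subunit, had 94.2 to 207 reads per 1000 exon reads (median 108) in its 418 bp intron (chr6:133138201-133138618, plus strand) in the 6 PSF-RIP libraries, against 0 to 4.57 (median 2.88) in the 6 inputs. The groups did not overlap, and the ratio rose by 6.04 ± 0.42 (log2 ± SE, adjusted p = 6.55e-11). This intron holds SNORA33, and its 5 nearly empty libraries are all inputs. RPS28 (249 bp) had 67.0 to 301 in PSF-RIP against 2.84 to 11.8 in input (log2 4.47 ± 0.33, adjusted p = 2.76e-10). RPL12 (476 bp) had 164 to 493 in PSF-RIP against 8.67 to 34.7 in input (log2 3.67 ± 0.22, adjusted p = 4e-12). RPS20, RPLP1, RPS2, RPL23 and RPS21 also rose by 3.65 to 4.64, with no overlap between the 6 PSF-RIP and the 6 input values of each.

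Genes outside the ribosome completed the 12 introns with the largest rises. EEF1B2, a subunit of translation elongation factor 1, had 431 to 1306 reads per 1000 exon reads (median 797) in its 635 bp intron (chr2:207025435-207026069, plus strand) in PSF-RIP, against 0 to 103 (median 55.1) in input (log2 3.98 ± 0.37, adjusted p = 1.43e-08). LRRC75A-AS1, a noncoding RNA, had 87.0 to 360 in PSF-RIP against 4.32 to 33.5 in input (log2 3.74 ± 0.22, adjusted p = 3.72e-12). Neither pair of groups overlapped. RUVBL2, an ATPase of chromatin remodelling complexes, had 42.7 to 81.8 (median 55.8) in the 101 bp intron printed above in the 6 PSF-RIP libraries, and 0 reads in each of the 6 inputs. Its ratio was at least 8.25-fold higher in PSF-RIP, against a floor of 3 reads over the inputs (adjusted p = 9.45e-05), and 78 of its bases are exon in another transcript. SBDS, a ribosome maturation factor, had 34.4 to 135 in PSF-RIP, and 0 in 5 inputs and 17.5 in 22Rv1 DHT input, from 2 reads. Its ratio of summed reads was 13.9 (95% interval 3.75 to 117, counting error only).

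The 11 introns named as lower in PSF-RIP included 1 ribosomal protein gene. UQCRC1, a subunit of respiratory complex III, had 54.4 to 244 reads per 1000 exon reads (median 72.8) in its 989 bp intron (chr3:48642214-48643202, minus strand) in PSF-RIP, against 424 to 1570 (median 539) in input. The groups did not overlap, and the ratio fell by 2.85 (SE 0.17, adjusted p = 4.14e-12). MATR3, a nuclear matrix RNA-binding protein, had 9.65 to 18.2 in PSF-RIP against 71.8 to 143 in input (log2 -2.85 ± 0.24, adjusted p = 2.9e-09), in an intron that holds SNORA74A. EIF4A2, a helicase of translation initiation, had 20 to 35.9 in PSF-RIP against 105 to 304 in input (log2 -2.73 ± 0.23, adjusted p = 2.59e-09), in an intron that holds SNORA81. TRRAP, an adaptor of histone acetyltransferase complexes, had 1.46 to 13.4 in PSF-RIP against 36.7 to 135 in input, in an intron that holds MIR3609 (log2 -3.02 ± 0.30, adjusted p = 4.26e-08). AP1B1, a clathrin adaptor subunit, C21orf33 and MIRLET7BHG, a host of let-7 microRNAs, fell by 2.99 to 3.31, each with no overlap between the groups. The MIRLET7BHG value in LTAD vehicle input (3000) rests on 1 exon read.

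SFPQ itself, which encodes PSF, carried one of these introns. Its 912 bp intron (chr1:35653692-35654603, minus strand) had 2.05 to 17.6 reads per 1000 exon reads (median 3.54) in PSF-RIP against 8.33 to 56.0 (median 39.5) in input. These ranges overlapped, every PSF-RIP value was below its own input, and the ratio fell by 2.59 (SE 0.42, adjusted p = 5.32e-05). CSNK1A1, a casein kinase, had at most 1.91 in 5 PSF-RIP libraries and 21.0 in 22Rv1 vehicle PSF-RIP, against 16.5 to 50.5 in input (log2 -2.95 ± 0.51, adjusted p = 0.000126). RAB13, a small GTPase, had at most 10.1 in 5 and 85.0 in 22Rv1 DHT PSF-RIP, against 58.3 to 111 in input (log2 -2.38 ± 0.56, adjusted p = 0.00261). The ranges of these 2 introns overlapped through that 1 library, and the RAB13 call was lost without LTAD (log2 -1.87). RPS27 passed as lower on a nearly empty exon row of 30 exon reads in PSF-RIP and 2 in input and lost its call without any 1 of the lines.

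**Figure D2:**
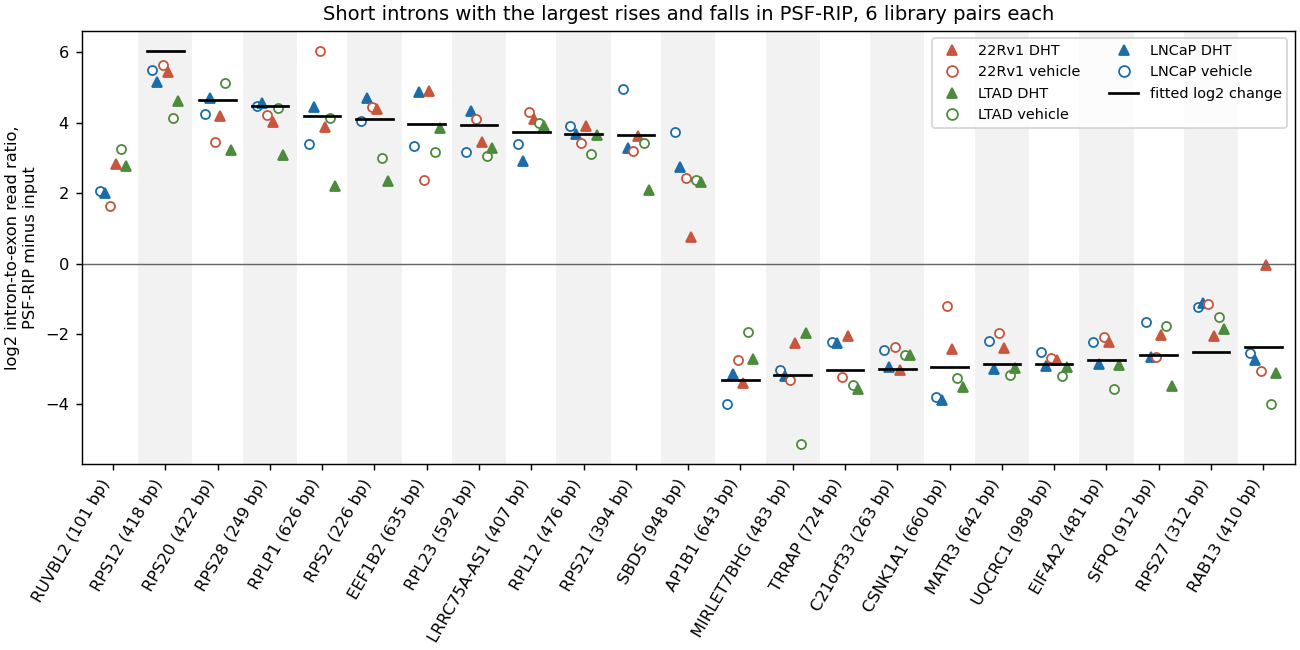
Log2 change of the intron-to-exon ratio, PSF-RIP over input, for the 12 introns with the largest rises and 11 of those with the largest falls, with 1 point for each of the 6 pairs (prior count 2) and a bar for the fitted value where the inputs held more than 3 reads. All 6 points of each intron lie on the same side of 0, which the rule for naming them required, and CSNK1A1 and RAB13 each have 1 point closer to 0 than their other 5.

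The ratio combines a change in intron reads with a change in exon reads, and the higher introns differed in both. Among the 549 higher introns, intron CPM were higher in PSF-RIP by a median log2 of 1.37, and exon reads lower by a median of -0.29, with exon reads lower for 342 of them. Among the 75 lower introns, the medians were -0.84 for intron reads and 0.83 for exon reads. Over all short introns the medians were 0.78 and 0.49, and over the longer ones 0.56 and 0.44. When intron reads were tested alone, 691 short introns were higher and 197 lower in PSF-RIP, with a median log2 of 0.47, against 16.8% higher, 6.52% lower and a median of 0.28 over all introns. Without LTAD the same test gave 364 higher and 111 lower.

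Ribosomal protein genes divided into intron and exon parts most widely among the lists described. Of 135 short introns in 61 such genes, 98 had a higher ratio (72.6%, against 18.3% of all introns tested) and 4 a lower one (median log2 1.77), and 36 had a library nearly empty of reads. Exon reads were lower in PSF-RIP for 122 of the 135 (median log2 -1.09), and intron reads were higher for 96 (median 0.86). On intron reads alone 42 were higher and 27 lower, against 16.8% higher and 6.52% lower of all introns tested. RPL29, a large-subunit protein, had 259 to 613 intron reads per 1000 exon reads in PSF-RIP against 27.2 to 119 in input (log2 2.91 ± 0.22, adjusted p = 3.21e-10). RPS12 shows both parts, with a median of 2.30 intron CPM in PSF-RIP against 0.560 in input, and 20.7 exon CPM in PSF-RIP against 194 in input. DESeq2 called 88 higher and 1 lower. These genes have many near-identical processed copies, so their counts of uniquely mapped reads are uncertain.

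**Figure D3:**
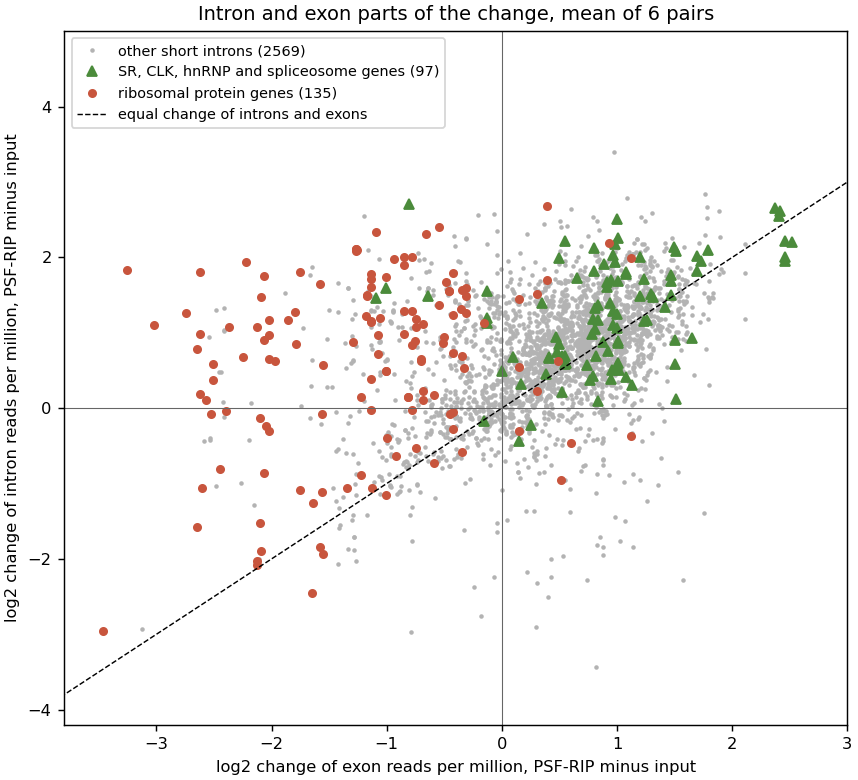
Each point is a short intron, with the log2 change of its transcript's exon CPM (PSF-RIP over input) on the x axis and of its own CPM on the y axis. Ribosomal protein introns (red, 135) gather at exon changes below 0 and mostly above the dashed line of equal change, while introns of SR, CLK, hnRNP and spliceosome genes (green, 97) lie mostly where both are above 0.

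Among SR proteins and CLK kinases, which regulate splice site choice, 8 of 33 short introns had a higher ratio (24.2%) and 3 a lower one (9.09%), near the 18.3% and 6.71% of all introns tested (median log2 0.38). The median log2 change was 1.73 in their intron CPM and 0.98 in their exon CPM, beside 0.78 and 0.49 over all short introns. On intron reads alone 21 were higher and 1 lower, against 16.8% higher and 6.52% lower of all introns tested. SRSF3 (837 bp) had 49.6 to 180 reads per 1000 exon reads in PSF-RIP against 7.14 to 43.7 in input (log2 1.48 ± 0.27, adjusted p = 0.00017), with no overlap. SRSF7 had 151.3 to 414 in PSF-RIP against 46.0 to 132 in input (log2 1.21 ± 0.25, adjusted p = 0.000763), also with no overlap. SRSF6 and SRSF2 rose by 1.08 and 1.02, with overlapping ranges and every PSF-RIP value above its own input. SRSF2 overlaps an exon of another transcript over all of its 995 bp.

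Among hnRNP genes, whose proteins package nascent transcripts, 10 of 38 short introns had a higher ratio (26.3%, against 18.3% of all introns tested) and 0 a lower one by edgeR (median log2 0.28, 12 higher and 0 lower at an unadjusted p under 0.05). DESeq2 and separate scaling of intron and exon reads each called 5 higher (13.2%) and 0 lower, where they called 9.68% and 14.9% of all introns higher. PCBP2 had 32.5 to 152 in PSF-RIP against 11.6 to 62.2 in input (log2 1.26 ± 0.23, adjusted p = 0.000261). HNRNPA1 had 128 to 380 in PSF-RIP against 0 to 172 in input (log2 1.55 ± 0.29, adjusted p = 0.000321). HNRNPA2B1 (156 bp) had 10.0 to 36.9 in PSF-RIP against 0 to 22.2 in input (log2 1.36 ± 0.32, adjusted p = 0.00232). The ranges of these 3 overlapped, and each was higher in 6 of 6 pairs. HNRNPH1 (log2 0.77 ± 0.24, adjusted p = 0.0228) was higher in 5 of 6 pairs and lost its call without 22Rv1 (log2 0.44) and without LNCaP (log2 0.77, adjusted p = 0.0735).

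For the spliceosome core, 6 of 26 were higher (23.1%, near the 18.3% of all introns tested) and 0 lower by edgeR (median log2 0.32, the same counts at an unadjusted p under 0.05), and DESeq2 called 4 and 0. SNRPE, a core snRNP protein, had 529 to 1333 in PSF-RIP against 48.8 to 210 in input (log2 2.87 ± 0.34, adjusted p = 6.4e-07), and LSM5 had 427 to 905 in PSF-RIP against 0 to 357 in input (log2 3.50 ± 0.46, adjusted p = 3.09e-06). Neither pair of groups overlapped. U2AF1 rose by 1.29 (call lost without 22Rv1, log2 0.90) and RBM25 by 1.98 (call lost without LNCaP and without LTAD). For DBHS and paraspeckle protein genes, 4 of 12 were higher (33.3%) and 2 lower (16.7%), against 18.3% and 6.71% of all introns tested (median log2 0.40). NONO, the usual partner of PSF, had 6.80 to 50.9 in PSF-RIP against 2.91 to 9.35 in input (log2 1.96 ± 0.38, adjusted p = 0.000443), and RBMX had 220 to 543 in PSF-RIP against 80.4 to 242 in input (log2 1.38 ± 0.24, adjusted p = 0.000103), while MATR3 and SFPQ fell as given above.

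Of 48 short introns in 18 genes that host snoRNAs, 14 were higher (29.2%) and 2 lower (4.17%), against 18.3% and 6.71% of all introns tested (median log2 0.46). SNHG6 had 202 to 650 in PSF-RIP against 0 to 81.6 in input (log2 3.42 ± 0.35, adjusted p = 8.28e-08), with no overlap. GAS5 (193 bp) had 221 to 768 in PSF-RIP against 0 to 210 in input (log2 2.52 ± 0.33, adjusted p = 2.57e-06), and SNHG8 had 71.0 to 298 in PSF-RIP against 14.5 to 57.1 in input (log2 2.11 ± 0.29, adjusted p = 6.19e-06). None of these ranges overlapped either. EIF4A2 fell as given above.

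Of 25 short introns in androgen-induced genes, 2 were higher (8%) and 3 lower (12%), against 18.3% and 6.71% of all introns tested (median log2 -0.01). SPDEF, a prostate transcription factor, had 3.29 to 8.63 in PSF-RIP against 14.4 to 56.7 in input (log2 -2.25 ± 0.33, adjusted p = 1.54e-05), with no overlap. FASN (770 bp) had 0.706 to 4.17 in PSF-RIP against 1.39 to 40.2 in input (log2 -2.16 ± 0.34, adjusted p = 3.26e-05), with overlapping ranges, and its call was lost without 22Rv1 (log2 -1.18). SLC45A3 passed at 0.74 ± 0.27 (adjusted p = 0.0426) and lost its call without any 1 of the lines and in the fit with a block for each pair.

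KLK3, which encodes prostate-specific antigen, FOLH1 and HOXB13 did not pass (log2 0.53 ± 0.28, 0.47 ± 0.43 and 0.21 ± 0.33), and the count of calls over the whole luminal list is not given here. For replication and mitosis genes, 0 of 13 were higher and 1 was lower by edgeR (1 and 1 at an unadjusted p under 0.05), and DESeq2 called 0. CDC25B, a mitotic phosphatase, had -1.11 ± 0.39 (adjusted p = 0.0377) and lost its call without 22Rv1 and without LTAD. PCNA, MCM7 and CDT1 did not pass (adjusted p = 0.133, 0.151 and 0.167). The 1 neuroendocrine member, in ENO2, did not pass (log2 -0.25 ± 0.56), and basal, stromal and leukocyte genes had no member.

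Among the named genes with the most-read short introns, 2 passed the test in PSF-RIP over input. TUBB, a beta tubulin, held 12889 reads in an intron that lies wholly within an exon of another transcript, with 621 to 791 reads per 1000 exon reads in PSF-RIP against 482 to 611 in input (log2 0.39 ± 0.15, adjusted p = 0.0704). HSPA8, a heat shock chaperone, had 274 to 309 in PSF-RIP against 209 to 333 in input (log2 0.06 ± 0.16, adjusted p = 0.825), in an intron that holds SNORD14E. LRRC75A-AS1 (791 bp) had 237 to 816 in PSF-RIP against 55.8 to 158 in input (log2 2.13 ± 0.19, adjusted p = 9.37e-09). MAT2A, which makes S-adenosylmethionine and has a regulated last intron, had 130 to 195 in PSF-RIP against 39.0 to 158 in input (log2 0.85 ± 0.21, adjusted p = 0.00414), and lost its call without LTAD (log2 0.73). MDK, PPP1CC, RNF167, PHB2 and PYCR1 did not pass (log2 -0.21 to 0.30).

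Of the 11 short introns with the U12-type start printed above, 4 had a higher ratio in PSF-RIP (36.4%, against 18.3% of all introns tested) and 0 a lower one by edgeR (median log2 0.69, 5 and 1 at an unadjusted p under 0.05). DESeq2 called 2 higher (18.2%, against 9.68% of all introns) and 0 lower. TMEM258 had a median of 297 reads per 1000 exon reads in PSF-RIP against 26.3 in input (log2 3.50 ± 0.37, adjusted p = 1.14e-07). UBXN4 had 41.9 in PSF-RIP against 9.91 in input (log2 1.65 ± 0.36, adjusted p = 0.00136), PSMA1, a proteasome subunit, 112 in PSF-RIP against 35.5 in input (log2 1.38 ± 0.35, adjusted p = 0.00476), and RPL4 10.1 in PSF-RIP against 4.55 in input (log2 1.22 ± 0.38, adjusted p = 0.0208). All 4 overlap an exon of another transcript. The 7 others did not pass, from GAR1 at -0.55 ± 0.33 to ALG3 at 0.96 ± 0.36.

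Crosslinked sites of PSF were available for LNCaP as 4 deposited peak lists, 23580 and 13546 peaks after DHT and 24242 and 7691 after vehicle. Peaks lay on 215 (7.68%) and 50 (1.79%) of the short introns after DHT, and on 214 (7.64%) and 16 (0.571%) after vehicle. For longer introns the shares were 30.9% and 16.6% after DHT and 32.7% and 5.83% after vehicle, with no allowance for length. Per Mb of intron the order turned, but an intron counts once however many peaks it holds. This value therefore falls with intron length by construction and is no measure of peak density. Short introns with a peak numbered 138.4 and 32.18 per Mb after DHT, against 13.69 and 7.336 for longer ones. After vehicle they numbered 137.7 and 10.3 per Mb, against 14.47 and 2.583. The 288 short introns with a peak in at least 1 list (10.3%) had a median log2 of 0.43 in PSF-RIP over input (79 higher, 10 lower). The 2513 without a peak had 0.24 (470 higher, 65 lower), beside 18.3% higher and 6.71% lower of all introns tested. Short introns with and without a peak had median lengths of 647 and 561 bp and median summed reads of 217 and 175. The part of length and reads in the difference between their log2 medians was not tested. Peaks in all 4 lists lay on 11 short introns, of which 5 had a higher ratio in PSF-RIP and 6 did not pass. The 5 were 3 overlapping introns of IFI6, an interferon-induced gene (log2 2.09 to 2.51), HNRNPA2B1 (156 bp, log2 1.36 ± 0.32) and HNRNPH1. The 685 bp intron of IFI6 had 50 (DHT) and 302 (vehicle) reads in LNCaP PSF-RIP, 8 and 5 in LTAD PSF-RIP, 0 and 17 in LNCaP input, 1 and 1 in LTAD input, and 0 in all 4 22Rv1 libraries, so its value rests on LNCaP. The others were HNRNPA2B1 (673 bp, log2 -0.62 ± 0.48), AAAS, TP73-AS1, NAPB, FLAD1 and ZNHIT6 (log2 -0.03 to 0.44).

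DHT moved few short introns within PSF-RIP. Of 2801, 7 were higher and 8 lower after DHT, 0.536% of members against 0.228% of all introns tested (0.0611% higher and 0.166% lower), with a median log2 of -0.10 against -0.23. With intron and exon reads scaled separately the counts were 8 and 1 and the median 0.13. An unadjusted p under 0.05 was reached by 365, and DESeq2 called 0 (78 unadjusted). Of the 15, 11 had a library nearly empty of intron reads. Without LNCaP 51 were higher and 28 lower, without 22Rv1 13 and 8, and without LTAD 6 and 0.

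RACK1, a ribosomal scaffold protein, had 17.1 (LNCaP), 16.4 (22Rv1) and 8.33 (LTAD) reads per 1000 exon reads in its 827 bp intron (chr5:180665240-180666066, minus strand) after DHT in PSF-RIP, against 55.1, 51.0 and 11.8 after vehicle. The value was lower after DHT in each line, and the groups overlapped across lines (log2 -1.28 ± 0.25, adjusted p = 0.0214, lost without 22Rv1, log2 -1.12, and without LTAD, log2 -1.66). Its inputs lay between 22.2 and 24.4 in all 6 libraries. UBE2J2, a ubiquitin-conjugating enzyme, had 43.4, 33.9 and 37.8 in the 77 bp intron printed above after DHT, against 0, 0 and 17.5 after vehicle (log2 2.34 ± 0.51, adjusted p = 0.0401, lost without 22Rv1). HNRNPU, an RNA-binding nuclear scaffold protein, had 10.1, 9.43 and 11.9 after DHT against 0.550, 4.91 and 0 after vehicle (log2 2.37 ± 0.50, adjusted p = 0.0364, lost without LTAD). Neither of these 2 pairs of groups overlapped. PTOV1 had 0, 21.4 and 0 after DHT against 48.2, 34.1 and 27.2 after vehicle (log2 -2.93 ± 0.61, adjusted p = 0.0357, lost without LTAD), and VPS72 22.5 to 43.8 after DHT against 48.3 to 164 after vehicle (log2 -1.40 ± 0.29, adjusted p = 0.0342, lost without any 1 line). None of these 5 passed with DESeq2, and with separate scaling RACK1, PTOV1 and VPS72 lost their calls.

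In the inputs 1 short intron was lower after DHT and 0 higher by edgeR, against 0.017% of all introns (137 unadjusted, and DESeq2 gave the same counts). ARF5, a small GTPase of vesicle traffic, had 19.4 (LNCaP), 5.53 (22Rv1) and 10.2 (LTAD) reads per 1000 exon reads in its 471 bp intron (chr7:127229649-127230119, plus strand) after DHT, against 211, 149 and 216 after vehicle. The groups did not overlap, and the ratio fell by 4.17 (SE 0.40, adjusted p = 1.61e-06), a call kept without each line in turn. In PSF-RIP the same intron had 110, 36.1 and 56.5 after DHT against 158, 62.2 and 67.7 after vehicle. The response to DHT differed between PSF-RIP and input by 3.64 ± 0.49 (log2, adjusted p = 0.000553).

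The 22Rv1 line had lower ratios than LNCaP in PSF-RIP for many short introns. Of 2801, 52 were higher and 541 lower in 22Rv1, 1.86% and 19.3% of members, against 21.2% and 15.4% of all introns tested. The median log2 was -0.32, against -0.003 over all introns. The medians were -0.18 at 150 bp or less, -0.21 up to 500 bp, -0.40 over 500 bp and -0.43 from 1 to 5 kb, while introns of 5 to 50 kb stood at 0.32 and those of 50 kb or more at 1.71. Short introns thus shared their side of 0 with introns up to 5 kb. Without 22Rv1 vehicle the counts were 23 and 164, and without LNCaP vehicle 42 and 216. With separate scaling they were 43 and 639 with a median of -0.42, and with DESeq2 10 and 103.

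PPIB, a cyclophilin of the endoplasmic reticulum, had 7.32 (DHT) and 7.72 (vehicle) reads per 1000 exon reads in its 579 bp intron (chr15:64448345-64448923, minus strand) in 22Rv1 PSF-RIP, against 63.6 and 116 in LNCaP PSF-RIP (log2 -3.53 ± 0.32, adjusted p = 1.01e-08). The difference was also present in the inputs, at 28.0 and 29.6 in 22Rv1 against 337 and 468 in LNCaP. SLC35E2B had 10.4 and 8.38 in 22Rv1 against 65.6 and 88.8 in LNCaP (log2 -3.08 ± 0.36, adjusted p = 3.62e-07), and MUM1 2.53 and 6.65 in 22Rv1 against 47.3 and 81.3 in LNCaP (log2 -3.64 ± 0.50, adjusted p = 2.98e-06). LARP1, which regulates translation of ribosomal protein transcripts, had 0.645 and 0.371 in 22Rv1 against 7.92 and 4.02 in LNCaP (log2 -3.40 ± 0.57, adjusted p = 3.76e-05). Introns were named between lines for large changes of 1 sign in every pair, so a lack of overlap follows largely from that choice. None of these 4 pairs of groups overlapped, and all 4 calls were kept without each library in turn.

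Several introns were at or near 0 in 22Rv1 PSF-RIP. CAPNS1, a calpain subunit, had 0.513 and 0 in its 101 bp intron in 22Rv1 against 60.4 and 51.5 in LNCaP, a ratio of summed reads of 0.00387 (95% interval 9.73e-05 to 0.0219, adjusted p = 5.69e-06). SNRPN, an imprinted splicing factor gene, had 0 and 0 in 22Rv1 against 29.4 and 36.8 in LNCaP, at least 10.6-fold lower in 22Rv1 (adjusted p = 0.00036). UBTF, a polymerase I factor, had 0 and 0.624 in 22Rv1 against 19.6 and 34.0 in LNCaP, a ratio of 0.0141 (0.000348 to 0.0833), and SS18L1 6.58 and 6.94 in 22Rv1 against 166 and 194 in LNCaP, a ratio of 0.0372 (0.00760 to 0.110). These 4 calls were kept without each library in turn. EIF4G2 and FKBP2 were high only in the LNCaP DHT library among the 4 (30.6 and 260 against at most 0.164 and 9.22 in the other 3), so these values rest on 1 library, and both calls were lost without 22Rv1 DHT.

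Higher ratios in 22Rv1 were fewer. SNHG3, a snoRNA host, had 886 (DHT) and 1152 (vehicle) in its 669 bp intron (chr1:28834673-28835341, plus strand) in 22Rv1 PSF-RIP against 135 and 104 in LNCaP PSF-RIP (log2 3.11 ± 0.29, adjusted p = 1.19e-08), and 466 and 488 in 22Rv1 against 211 and 182 in LNCaP among the inputs. HNRNPL, an hnRNP that binds CA-rich RNA, had 74.1 and 81.1 in 22Rv1 against 3.03 and 11.3 in LNCaP (log2 3.36 ± 0.45, adjusted p = 2.49e-06), and TPI1, a glycolytic enzyme, 24.7 and 39.7 in 22Rv1 against 1.97 and 3.39 in LNCaP, a ratio of 12.4 (4.11 to 61.2). The groups did not overlap for any of the 3, and their calls were kept without each library in turn. RBM3, a cold-induced RNA-binding protein, had 44.3 and 28.7 in 22Rv1 against 0 and 0 in LNCaP, at least 22.3-fold higher in 22Rv1 (adjusted p = 0.000153). GNL3, SGPL1, CSNK1A1, PNPLA2, PABPC4 and TIMELESS were also called higher, and each lost its call without 1 or more of the 4 libraries.

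The LTAD line had lower median ratios than LNCaP in PSF-RIP in each length bin up to 50 kb. Of 2801 short introns, 15 were higher and 472 lower in LTAD, 0.536% and 16.9%, against 0.73% and 19.8% of all introns tested, with a median log2 of -0.38 against -0.48. The medians were -0.09 at 150 bp or less, -0.27 up to 500 bp, -0.49 over 500 bp, -0.67 from 1 to 5 kb and -0.46 from 5 to 50 kb, while introns of 50 kb or more stood at 0.10. Separate scaling of intron and exon reads, which removes a change shared by all introns, gave 29 higher and 59 lower and a median of 0.12. Without LNCaP vehicle 19 were higher and 190 lower, without LTAD DHT 8 and 64, and without LTAD vehicle 7 and 54. DESeq2 called 1 and 17 and gave no adjusted p to 988 of the introns. Ribosomal protein genes had 0 higher and 39 lower of 135 by edgeR (median -0.76, 1 and 66 at an unadjusted p under 0.05), with separate scaling 1 and 4 (median -0.26), and with DESeq2 0 and 0. In 22Rv1 they had 5 higher (3.7%) and 37 lower (27.4%, median -0.60), against 21.2% higher and 15.4% lower of all introns tested in that comparison. Separate scaling gave 5 and 44, and DESeq2 1 and 9.

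**Figure D4:**
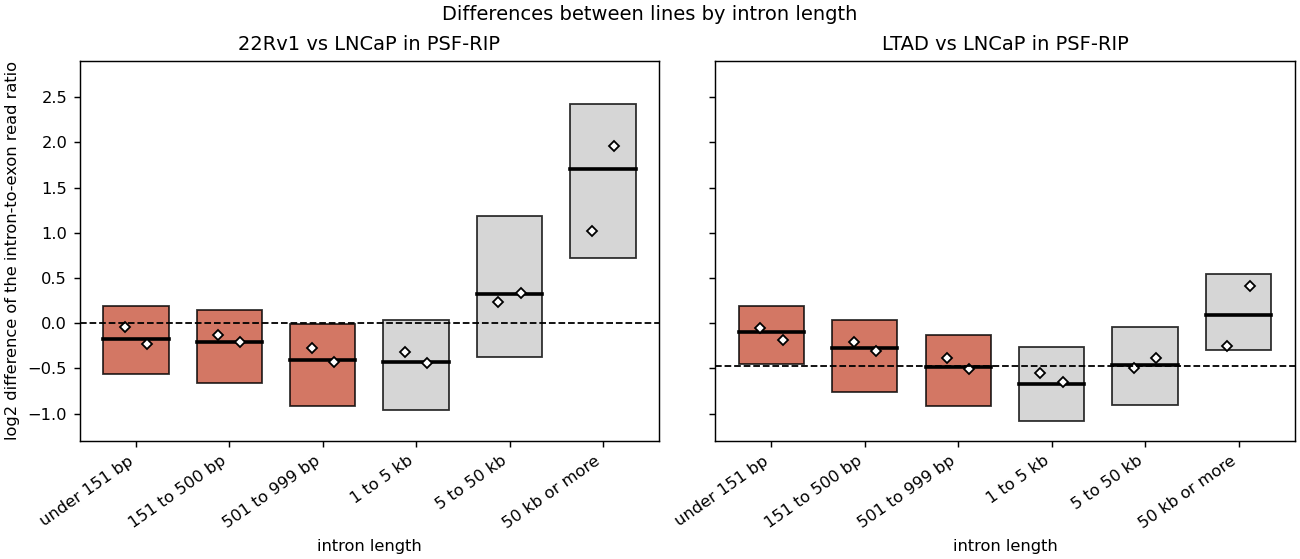
Log2 change of the intron-to-exon ratio in PSF-RIP, 22Rv1 over LNCaP and LTAD over LNCaP, by intron length. Boxes show quartiles, bars medians, diamonds the medians of the DHT (left) and vehicle (right) pairs, and the dashed line the median of all introns. In PSF-RIP the 3 short bins (red) have medians of -0.18, -0.21 and -0.40 in 22Rv1 and -0.09, -0.27 and -0.49 in LTAD, sides of 0 that hold in LTAD only before separate scaling.

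KIAA0100 had 0.106 (DHT) and 0.115 (vehicle) reads per 1000 exon reads in its 534 bp intron (chr17:26967044-26967577, minus strand) in LTAD PSF-RIP, from 1 read each, against 13.6 and 10.1 in LNCaP PSF-RIP. The ratio of summed reads was 0.00944 (95% interval 0.00113 to 0.0347, adjusted p = 2.32e-09), while the inputs held 18.6 and 16.6 in LTAD against 10.1 and 12.7 in LNCaP. AHSA1, a cochaperone of HSP90, had 3.86 and 3 in LTAD against 56.0 and 36.5 in LNCaP (log2 -3.70 ± 0.39, adjusted p = 8.4e-07), with inputs of 42.4 and 55.6 in LTAD against 43.1 and 50.0 in LNCaP. SAFB2, a nuclear scaffold protein, had 1.16 and 2.11 in LTAD against 72.9 and 40.1 in LNCaP, a ratio of 0.0268 (0.00315 to 0.102). TALDO1, of the pentose phosphate pathway, had 1.73 and 3.38 in LTAD against 46.3 and 34.3 in LNCaP (log2 -4.01 ± 0.54, adjusted p = 3.1e-05), and SDF4 0.573 and 1.91 in LTAD against 16.7 and 17.9 in LNCaP (log2 -3.70 ± 0.59, adjusted p = 0.000168). The groups did not overlap for any of these 5, and their calls were kept without each library in turn.

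USP7, a deubiquitinase, had 0.310 and 0 in its 93 bp intron in LTAD PSF-RIP against 30.3 and 25.9 in LNCaP PSF-RIP, a ratio of 0.00703 (0.000175 to 0.0405), a call lost without LTAD DHT. WBSCR22 (137 bp) had 0 and 0 in LTAD against 35.1 and 28.4 in LNCaP, at least 14.1-fold lower, and lost its call without either LTAD library. EEF2, a translation elongation factor, had 0.0681 and 0.0395 in its 80 bp intron in LTAD against 4.75 and 0.110 in LNCaP, so that 1 LNCaP library holds the difference. PSME3 and FKBP2 were also called lower and each lost the call without 1 or more libraries. In the other direction, GNL3, a nucleolar GTPase, had 70.0 and 64.1 in its 418 bp intron (chr3:52720844-52721261, plus strand) in LTAD against 0 and 0 in LNCaP, at least 39.2-fold higher (adjusted p = 3.61e-05). GAS5 (916 bp) had 5274 and 2702 in LTAD against 463 and 426 in LNCaP (log2 3.03 ± 0.26, adjusted p = 2.15e-08), and PABPC4, a poly(A)-binding protein, 53.9 and 41.0 in LTAD against 0.95 and 7.52 in LNCaP (log2 3.50 ± 0.64, adjusted p = 0.000547). These 3 were kept without each library in turn. With DESeq2 GNL3 passed, PABPC4 did not, and GAS5 was given no adjusted p.

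Fewer introns separated the lines in input. Of the short introns, 20 were higher and 34 lower in 22Rv1 than in LNCaP input (1.93% of members, against 1.88% higher and 1.9% lower of all introns, median log2 -0.15 against 0.05), and 1 was higher and 11 lower in LTAD than in LNCaP input (0.428%, against 0.0306% higher and 0.289% lower, median -0.22 against -0.57, and 0.25 with separate scaling). Without 22Rv1 vehicle the first counts were 3 and 8, and without LNCaP vehicle 9 and 21. RPL38, a large-subunit protein, had 3.78 (DHT) and 0 (vehicle) reads per 1000 exon reads in its 494 bp intron (chr17:72205449-72205942, plus strand) in 22Rv1 input and 0 and 0 in LTAD input, against 539 and 552 in LNCaP input. The ratio was 0.00296 (95% interval 0.000609 to 0.00868, adjusted p = 1.69e-11) in 22Rv1 and at least 357-fold lower in LTAD (adjusted p = 9.75e-12). In the 6 PSF-RIP libraries this intron had at most 7.47. ALDOA, a glycolytic aldolase, had 41.2 and 37.4 in its 109 bp intron in 22Rv1 input and 27.2 and 32.8 in LTAD input, against 0 and 0 in LNCaP input, at least 37.01-fold and 27.4-fold higher. In PSF-RIP it had at most 1.37 in any library. Both introns kept their calls without each library in turn, and the other named introns of this comparison lost theirs without 1 or more libraries.

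A direct test asked whether enrichment in PSF-RIP over input differed between lines, or the response to DHT between assays. Enrichment differed between 22Rv1 and LNCaP for 7 short introns (3 higher, 4 lower), against 0.102% higher and 0.0306% lower of all introns, and between LTAD and LNCaP for 5 (1 higher, 4 lower), against 0.0034% and 0.0238%. The response to DHT differed between PSF-RIP and input for 5 (5 higher), against 0.0272% of all introns. RPL38 and ALDOA passed for both lines. KIAA0100 and AHSA1 passed for LTAD at -7.14 ± 0.69 (adjusted p = 1.93e-06) and -3.76 ± 0.64 (adjusted p = 0.0191).

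Many of the largest differences came from introns that were read in some libraries and nearly absent from others. A library was called empty for an intron where it held 1 read or fewer and 10 or more were expected from the transcript's exon reads and the intron's pooled ratio. By that rule 220 short introns (7.85%) had an empty library, against 876 of the longer ones (3.29%). The share was 16.4% at 150 bp or less, 8.81% up to 500 bp and 6.05% over 500 bp. It was 17.9% for introns free of any other exon, 11.6% for those in a retained-intron transcript and 5.04% for those overlapped by another exon. Of the 220, 147 had 1 such library, 40 were empty in both treatments of a line and assay, and 110 were empty in at least 1 PSF-RIP library. Their median GC content was 49.7%, against 53.6% for the other members.

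FKBP2, CAPNS1 and EIF4G2 are given as examples, chosen after their values were seen. FKBP2, a folding enzyme of the endoplasmic reticulum, had 260 in LNCaP DHT PSF-RIP and 271 to 289 in 4 inputs, and 0 to 21.3 in the other 7 libraries. CAPNS1 had 51.5 to 60.4 in 3 PSF-RIP libraries and 28.7 to 62.9 in 4 inputs, and at most 0.513 in the other 5 libraries. EIF4G2, a translation initiation factor, had 176 reads in LNCaP DHT and 505 in LTAD DHT PSF-RIP, and 1, 0, 0 and 0 in the other 4 PSF-RIP libraries. Introns with an empty library made up 118 of the 624 called in PSF-RIP against input, 81 of the 593 called between 22Rv1 and LNCaP, and 79 of the 487 between LTAD and LNCaP. Without them the counts were 450 higher and 56 lower in PSF-RIP, 39 and 473 in 22Rv1, and 5 and 403 in LTAD.

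**Figure D5:**
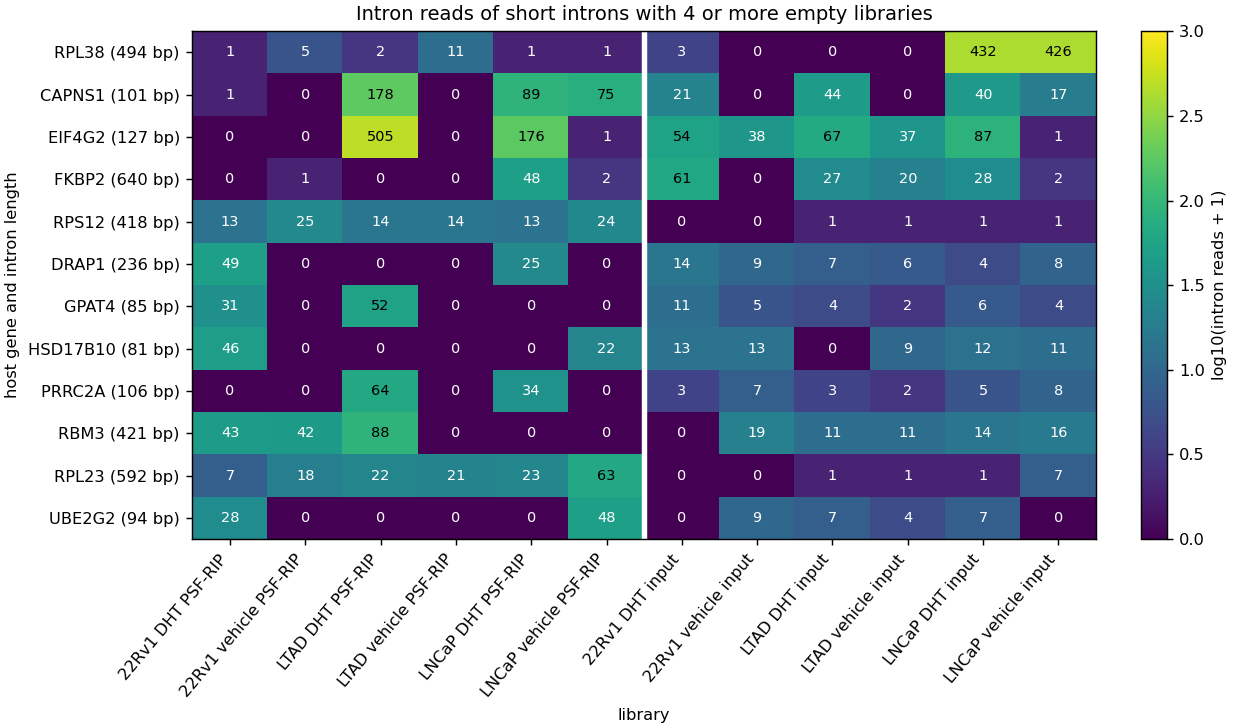
Reads in each of the 12 libraries (columns, PSF-RIP left of input) for 12 short introns with 4 or more empty libraries (rows), on a colour scale with the count written in each cell. RPL38 has 426 and 432 reads in the LNCaP inputs and at most 11 elsewhere, and EIF4G2 has 176 and 505 reads in PSF-RIP of DHT-treated LNCaP and LTAD cells and 0 or 1 in the other 4 PSF-RIP libraries.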

How the data were processed

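RIP and input libraries (12) and PSF-CLIP peak lists (4, LNCaP) were used. The authors deposited read counts, whole and not normalized, for RefSeq exons and introns and for antisense and intergenic rows on hg19, from reads marked unique, per the file headers, and rows without a read are not listed. The CLIP files hold peak positions with a score, both deposited by the authors, with peak names of the MACS kind, 1 list per library and no strand. The score was not used. The submitters' processing notes name GRCh37, hg19, TopHat2 2.1.0, Bowtie2 2.2.6 and Bowtie without a role, and no source used here gives the counting settings. RIP used a Millipore kit and libraries an Agilent target enrichment kit, per the labels' protocols. A second LNCaP set of 4 samples was not used, since 12 columns of it matched no single sample.

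For each intron the sense reads of its row and the exon reads of the same transcript gave 24 columns. These were fitted by quasi-likelihood in edgeR 4.0.16, R 4.3.3 and limma 3.58.1, with library blocks and a read-class term. In the main ratio fits the intron and exon columns of a library shared a common scale, without separate TMM factors. Benjamini-Hochberg adjustment at 0.05 ran over 29444 introns of 100 or more reads. PSF-RIP against input used terms for line and treatment, and the other comparisons 1 model over all 12 libraries. The steps were tested on simulated data. Where a group held 0 reads the fold is a bound against 3 reads over the group, and with 1 to 3 reads a ratio of summed reads with an exact 95% interval is given, both for counting error only. A prior count of 2 was added for values of single pairs. DESeq2 1.42.0, lower read limits, separate TMM of intron and exon columns, each line or library left out, a block per line-treatment pair, equal weight of the assays and introns without another exon were tried, and introns without an empty library were added after seeing the data. The labels give RIP libraries no replicate numbers, so pairs come from line and treatment. GENCODE and RefSeq exons on GRCh37 gave overlaps (1 bp or more), and sequences come from GRCh37.

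Members and the 13 gene lists were chosen with earlier results of these data known. Named were, 1 per gene, the 12 highest and 12 lowest introns in PSF-RIP against input, up to 10 each way in other PSF-RIP and 5 in input comparisons, past the threshold with 1 sign in every pair, the 10 most-read, and up to 4 per list by p. A lack of overlap between groups of introns named for their change is therefore a description and no separate support. Some results under these rules are not reported here.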

Additional observations from a re-analysis of the deposited data

Results flagged for a closer look

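For the introns named in PSF-RIP against input, 46 sets of 6 values of 1 assay were tested. In 9 of them a single library stood apart from the other 5. Chance flags about 1 in 20 such sets where values are normally distributed, which was not tested for these ratios. LNCaP vehicle PSF-RIP was the high library for RPL23 (71.2 reads per 1000 exon reads), RPS21 (397), SBDS (135) and SFPQ (17.6). Other high PSF-RIP values were CSNK1A1 in 22Rv1 vehicle (21.0) and RAB13 in 22Rv1 DHT (85.0). In the inputs the high values were RPL23 in LNCaP vehicle (7.32), SBDS in 22Rv1 DHT (17.5) and MIRLET7BHG in LTAD vehicle (3000, over 1 exon read).

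Enrichment in PSF-RIP over input differed between 22Rv1 and LNCaP, by a test of the difference itself (edgeR, adjusted p below 0.05), with log2 differences of -11.19 for ALDOA, 9.62 for RPL38, -9.13 for EIF4G2, 9.54 for RBM3, -5.84 for UBTF, -6.05 for PRRC2A and 6.53 for SGPL1. Between LTAD and LNCaP it differed by -7.14 for KIAA0100, 15.45 for RPL38, -10.80 for ALDOA, -3.76 for AHSA1 and -4.23 for the 91 bp intron of FASN. The response to DHT differed between PSF-RIP and input by 7.76 for PRRC2A, 3.64 for ARF5, 7.10 for EIF4G2, 7.01 for DRAP1 and 6.29 for GPAT4. Groups of 0 or 1 reads enter several of these, so the sizes depend on the prior count and are no bounds. PRRC2A (106 bp) had 34 and 64 reads in PSF-RIP of DHT-treated LNCaP and LTAD cells and 0 in the other 4 PSF-RIP libraries. DRAP1 (236 bp) had 25 and 49 reads in PSF-RIP of DHT-treated LNCaP and 22Rv1 cells and 0 in the other 4. GPAT4 (85 bp) had 31 and 52 in PSF-RIP of DHT-treated 22Rv1 and LTAD cells and 0 in the other 4.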

How the results depend on the processing

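For PSF-RIP against input, 22.3% of short introns passed. DESeq2 gave 13.7%, each line left out 16.0% to 17.4% (median log2 0.20 to 0.31), and the replicate block by line-treatment pair 21.1% with 517 higher and 74 lower, 587 of the 624 calls shared, and SLC45A3 the 1 named call lost. Intron reads alone gave 31.7%, and 17.0% to 25.2% with a line left out. The median kept its sign in each. Over 64 named introns, 478 of 506 alternatives kept direction and call.

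For DHT in PSF-RIP (0.536%), 10 or more reads gave 1.11%, DESeq2 0%, separate scaling 0.321% (median 0.13), introns without another exon 0.879%, introns without an empty library 0.155%, and lines left out 0.214% to 2.82% (median -0.14 to -0.057). In input (0.0357%), 10 or more reads gave 0.107%, introns without another exon 0.126%, separate scaling a median of 0.10, and lines left out 0.0357% to 0.214% (median -0.13 to -0.071). 

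For 22Rv1 in PSF-RIP (21.2%), 10 or more reads gave 12.9%, DESeq2 4.03%, separate scaling a median of -0.42, and libraries left out 6.68% to 21.1% (median -0.39 to -0.25). PNPLA2 ranged from -0.12 without 22Rv1 DHT, the library with 39 of its 41 22Rv1 reads, to 7.81 without 22Rv1 vehicle. In input (1.93%), 10 or more reads gave 0.928%, DESeq2 0.643%, separate scaling a median of -0.27, and libraries left out 0.393% to 1.86% (median -0.19 to -0.086).

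For LTAD in PSF-RIP (17.4%), 10 or more reads gave 7.75%, DESeq2 0.643% with 988 introns given no adjusted p, separate scaling 3.14% (median 0.12), introns without another exon a median of -0.58, and libraries left out 2.18% to 17.3% (median -0.46 to -0.32). In input (0.428%), 10 or more reads, DESeq2 and separate scaling each gave 0.107% (median 0.25 with the last), introns without another exon 0.126%, and libraries left out 0.0714% to 0.75% (median -0.33 to -0.19). The cause was not tested in these cases, except that separate scaling removes a change shared by all introns by construction and that leaving out a library leaves 1 in an arm, assumed to vary like the others.

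Depth limits single introns most in input, where a member near the threshold holds few reads. With 1 library per line, treatment and assay, line effects rest on 2 libraries each. Reads from overlapping exons, unspliced RNA and snoRNA precursors cannot be told apart in these counts.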
